A study of Mus musculus with 24 samples.

Results

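Ifitm1, Ifitm2, Ifitm3 and Ifitm10 are 4 genes of the interferon-induced transmembrane protein family, chosen by symbol from the 33000 genes of a 3'Pool-seq count table. 3'Pool-seq is a bulk RNA-seq method that reads the 3' ends of polyadenylated transcripts. The 24 libraries came from frontal cortex of 3 wild-type (WT) and 3 GFAP-IL6 mice, all C57BL/6 and 3 months old. Every mouse gave 4 libraries, made with 2 ng or 1 ng of cDNA in the tagmentation reaction and each in a set A and a set B. GFAP-IL6 mice carry an Il6 transgene under the promoter of Gfap, the astrocyte intermediate filament gene, and all 3 were homozygous. WT mice carried no transgene, and no other allele or treatment was named for either genotype. The transgene places the source of the cytokine in astrocytes, whereas RNA was taken from the whole dissected tissue. The labels do not say what sets A and B stand for, and the methods, which describe repeated library preparations from the same RNA samples, do not tie them to these letters.

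IFITM proteins are small membrane proteins that sit in the plasma membrane and in endosomes, where IFITM1, IFITM2 and IFITM3 restrict the entry of enveloped viruses by hindering membrane fusion. Their genes are induced by interferons and, in many cells, by interleukin-6 family cytokines through JAK kinases and STAT factors. IFITM3 also binds gamma-secretase, the protease that releases amyloid beta. In brain, Ifitm3 and Ifitm2 are best known from endothelial cells and activated glia. Ifitm10 lies outside the cluster of the other members, and its function is little known.

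In GENCODE vM21 on mm10, all 4 genes lie on chromosome 7. Ifitm2 (ENSMUSG00000060591.8) spans chr7:140954837-140955987 on the minus strand, and Ifitm1 (ENSMUSG00000025491.12) spans chr7:140967221-140969825 on the plus strand. Ifitm3 (ENSMUSG00000025492.6) spans chr7:141009586-141010770 on the minus strand. The start sites of these 3 genes fall within 54783 bases of each other. Ifitm10 (ENSMUSG00000045777.12) spans chr7:142325837-142373753 on the minus strand, and its start site is 1362983 bases from that of Ifitm3. Ifitm2 and Ifitm3 have 1 annotated transcript each, of 2 exons, with the 3' untranslated region, where 3'-end reads are placed, in the last exon. Ifitm1 has 3 transcripts that share their last exon, chr7:140969489-140969825. Ifitm10 has 6 transcripts, and its longest coding transcript, of 4 exons, carries a 3' untranslated region of 2436 nt against 202, 151 and 142 nt for Ifitm1, Ifitm2 and Ifitm3. Ifitm2 overlaps Gm45717 and Ifitm10 overlaps Gm49369, both on the same strand and neither among the counted genes.

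The promoters of Ifitm3 and Ifitm2 hold letters that interferon-activated factors are known to bind, and the stretches with those letters are printed here. RefSeq promoters of GRCm38.p6, from 250 bases before to 50 after a start site, were searched on both strands for GAAANNGAAA, the core of the interferon-stimulated response element, and for TTCNNNGAA, the gamma-activated site bound by STAT dimers. Capitals mark the matches, and both stretches are read 5' to 3' on the minus strand, at chr7:141010714-141010743 for Ifitm3 and chr7:140955988-140956017 for Ifitm2.
Ifitm3: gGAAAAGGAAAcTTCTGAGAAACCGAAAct
Ifitm2: ccaccaacagGAAAAGGAAAttgctagaga
Ifitm3 held 2 matches to GAAANNGAAA, at bases 3 to 12 and 20 to 29 counted from its start site, with 1 match to TTCNNNGAA at bases 14 to 22 that overlaps the second. Ifitm2 held 1 match to GAAANNGAAA, at bases -46 to -37. GAAANNGAAA was in 3.44% of 32851 promoters, at least 2 copies of it were in 0.225%, and TTCNNNGAA was in 8.3%. Neither pattern was in the 1 promoter of Ifitm1, the member with the largest fold change between genotypes, or in the 3 promoters of Ifitm10. For Ifitm1 the window searched was chr7:140967826-140968125. The bases before its first GENCODE start, at chr7:140967221, were not searched. Among other family genes searched, Ifitm5 held neither pattern. Ifitm6 held 1 match to TTCNNNGAA, at bases -10 to -2, and was not called different between genotypes (log2 fold change 0.28). Positions count from the RefSeq start sites, chr7:141010744 for Ifitm3 and chr7:140955961 for Ifitm2, which lie inside the GENCODE spans given above. A match describes letters in this window and is no evidence that a factor bound there.

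Library totals ran from 1524165 to 12256374 counts, and the summed counts per mouse from 7852743 in WT mouse 3 to 37582644 in GFAP-IL6 mouse 3. The floor of 3 counts was 0.245 to 1.97 CPM, the count scaled to the total of its library, in a library. Il6 was at 0.260, 0.166 and 0 CPM in WT mice 1 to 3 and at 3.16, 1.58 and 4.23 CPM in GFAP-IL6 mice 1 to 3, which matched the labels. WT mouse 3 stood apart in Ttr, a transcript of the choroid plexus, at 4038 CPM against 74.6 to 743 CPM in the other mice, and it had the lowest total. The summed fold changes of the members are also given without this mouse. Neuronal, astrocytic and oligodendrocyte markers were present in all mice, as the labelled cortex would have.

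Ifitm1, Ifitm2 and Ifitm3 were higher in GFAP-IL6 than in WT mice, by 1.21 to 1.85 on the log2 scale, whereas Ifitm10 was not called different. A differentially expressed gene (DEG) was one with an adjusted p under 0.05 and a log2 fold change above 1 or below -1. Of 14621 genes tested, 1.2% were DEGs higher in GFAP-IL6 mice, and 3 of the 4 members were among them. The members were chosen with earlier results of these data known, so 3 of 4 is a description and not a test. All 4 members passed the filter on low counts, and none had 3 counts or fewer in any library. The values below are of the 4 libraries of a mouse summed, in CPM scaled by TMM, with mice given in the order 1 to 3.

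Ifitm3, the member most studied as a restriction factor of influenza virus, was at 48.4, 51.6 and 46.3 CPM in WT and at 109.8, 139.1 and 168.3 CPM in GFAP-IL6 mice. The lowest GFAP-IL6 mouse was above the highest WT mouse, and the 3 WT mice lay close together. The means were 48.8 ± 2.68 CPM and 139.1 ± 29.2 CPM (SD, n = 3 each). The log2 fold change was 1.51 (SE 0.128, 95% interval 1.24 to 1.79), with an adjusted p of 4.28e-06 by edgeR's quasi-likelihood test with Benjamini-Hochberg adjustment. Among all 14621 genes, Ifitm3 had the 19th smallest adjusted p.

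Ifitm1, which acts mainly at the cell surface, was at 8.59, 8.42 and 5.38 CPM in WT and at 20.3, 26.6 and 35.4 CPM in GFAP-IL6 mice. Again the genotypes did not overlap. The means were 7.46 ± 1.81 CPM and 27.4 ± 7.62 CPM (SD, n = 3 each), and the log2 fold change was 1.85 (SE 0.198, 95% interval 1.43 to 2.27). The adjusted p was 5.94e-05 by edgeR's quasi-likelihood test with Benjamini-Hochberg adjustment. Ifitm1 had the largest fold change of the 4 members and was the 56th of the 176 higher DEGs by fold.

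Ifitm2, an endosomal relative of Ifitm3, was at 6.35, 5.49 and 6.43 CPM in WT and at 10.3, 13.8 and 16.9 CPM in GFAP-IL6 mice, again without overlap. The means were 6.09 ± 0.523 CPM and 13.7 ± 3.29 CPM (SD, n = 3 each). Its log2 fold change of 1.21 (SE 0.183, 95% interval 0.82 to 1.60) had an adjusted p of 0.00148 by edgeR's quasi-likelihood test with Benjamini-Hochberg adjustment. The interval reached below 1, so the size needed for a DEG was less secure than the direction. With every library down-sampled to 1524165 counts, the log2 fold change was 0.94 (adjusted p = 0.0355 by the same test), and Ifitm2 was then no DEG. Ifitm2 also shares 97.4% of 152 nt with the processed pseudogene Gm11951, so its counts are uncertain by the reads that match both.

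Ifitm10 was at 53.2, 47.2 and 41.6 CPM in WT and at 46.2, 44.9 and 39.5 CPM in GFAP-IL6 mice, and the genotypes overlapped. The means were 47.3 ± 5.79 CPM and 43.5 ± 3.54 CPM (SD, n = 3 each). The log2 fold change was -0.14 (SE 0.108, 95% interval -0.37 to 0.09), with an adjusted p of 0.824 by edgeR's quasi-likelihood test with Benjamini-Hochberg adjustment. A difference of the size seen for the other 3 members lies outside this interval.

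**Figure D1:**
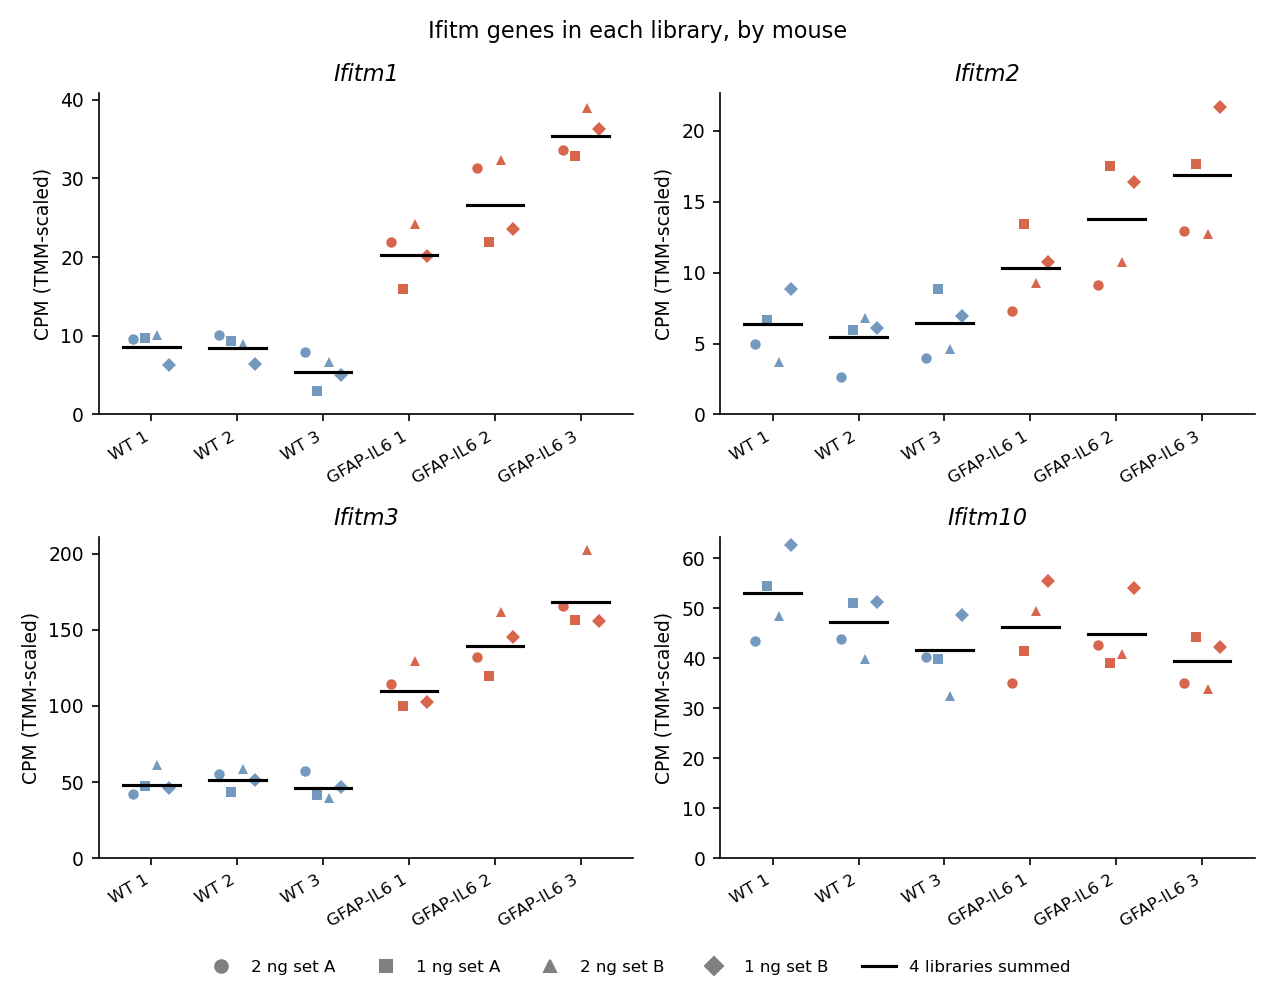
CPM (TMM-scaled, linear axis from 0) of each Ifitm gene in the 24 libraries, grouped by mouse, with 1 symbol per set and a black line at the value of the 4 libraries summed. All 12 GFAP-IL6 libraries lie above all WT libraries for Ifitm1 and Ifitm3, 11 of 12 do for Ifitm2, and none does for Ifitm10.

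Single libraries showed the same split, as the plot of the members by library and mouse shows. For Ifitm3, the WT libraries ran from 39.8 to 61.1 CPM (median 47.1) and the GFAP-IL6 libraries from 100.3 to 202.8 CPM (median 138.9). For Ifitm1 they ran from 2.95 to 10.1 CPM (median 8.41) and from 15.9 to 39.0 CPM (median 27.8). The 12 libraries of a genotype come from 3 mice and are not 12 replicates. Ifitm2 was the exception to a full split, since its lowest GFAP-IL6 library, at 7.29 CPM, was below its highest WT library, at 8.85 CPM. Ifitm2 was also the least counted member, with a median of 31 counts per library against 43 for Ifitm1, 187 for Ifitm10 and 249 for Ifitm3.

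Among the GFAP-IL6 mice, Ifitm1, Ifitm2 and Ifitm3 were each lowest in mouse 1 and highest in mouse 3, in the summed counts and in each of the 4 sets. Gfap followed the same order, at 80.9, 101.9 and 146.4 CPM, and so did the summed totals, at 9534116, 20641341 and 37582644 counts. Il6 did not in the summed counts, being lowest in mouse 2, but it rested on only 30, 33 and 163 counts in mice 1 to 3. In the set with 2 ng A, Il6 rose from mouse 1 to mouse 3, at 1.46, 2.61 and 6.11 CPM. Mouse 2 was lowest in the other sets. With equal totals in every library, Ifitm3 was at 112, 142 and 177 CPM and Ifitm1 at 21.5, 30.7 and 34.0 CPM in these mice, so the order was as before. Without GFAP-IL6 mouse 3, the number of DEGs among all genes fell from 180 to 106, yet Ifitm1, Ifitm2 and Ifitm3 remained DEGs with log2 fold changes of 1.62, 1.01 and 1.35. Without WT mouse 3, the mouse with high Ttr, these were 1.72, 1.25 and 1.49, and all 3 were DEGs, while Ifitm10 was at -0.21 and not called.

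Per kilobase of the gene length in the table, Ifitm3 had the highest level of the 4 members in both genotypes, at 72.0 CPM per kb in WT and 205 CPM per kb in GFAP-IL6 mice. In WT it was followed by Ifitm10 at 11.3, Ifitm2 at 9.71 and Ifitm1 at 6.82 CPM per kb. WT mice overlapped between Ifitm10 and Ifitm2 but not between Ifitm2 and Ifitm1. In GFAP-IL6 mice the order was Ifitm3, Ifitm1 at 25.1, Ifitm2 at 21.8 and Ifitm10 at 10.4 CPM per kb, and Ifitm1 and Ifitm2 overlapped. Because each transcript is read once at its 3' end, division by length lowers a long gene such as Ifitm10 (4197 nt) against a short one such as Ifitm3 (678 nt). Part of the order turned on the undivided CPM scale. In WT, Ifitm10 again came next to Ifitm3, at 47.3 against 48.8 CPM, but with the mice overlapping. Ifitm1, at 7.46 CPM, was then above Ifitm2, at 6.09 CPM, and the WT mice overlapped between these genes. In GFAP-IL6 mice Ifitm10 was second and not last, at 43.5 CPM after 139.1 CPM for Ifitm3. It came before Ifitm1 at 27.4 CPM and Ifitm2 at 13.7 CPM.

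The counts of the 3 cluster genes together rose from 62.3 ± 3.80 CPM in WT to 180 ± 40.1 CPM in GFAP-IL6 mice (SD, n = 3 each), a ratio of means of 2.89. The members did not keep equal shares of this sum. Ifitm1 took 13.6%, 12.8% and 9.26% in WT and 14.4%, 14.8% and 16.1% in GFAP-IL6 mice, and Ifitm2 took 8.37% to 11.1% against 7.36% to 7.69%. For both genes the genotypes did not overlap, with the share of Ifitm1 higher and that of Ifitm2 lower in GFAP-IL6 mice (exact two-sided permutation p = 0.1 for each, n = 3 each). That is the smallest p this design allows, so neither shift can pass 0.05. The share of Ifitm3 was 78.3% ± 1.69 and 77.3% ± 0.981 (SD, n = 3 each; exact two-sided permutation p = 0.4).

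**Figure D2:**
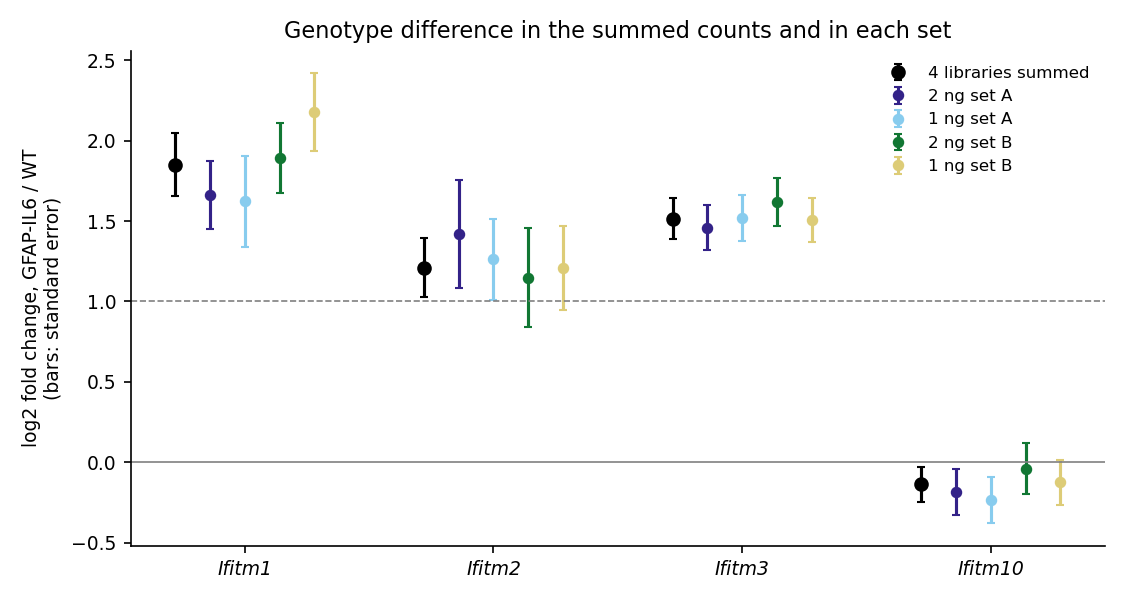
Log2 fold change of GFAP-IL6 over WT (vertical axis, bars are standard errors) for each Ifitm gene, from the summed counts (black) and from each set (colours), with 3 mice a genotype in every fit. The dashed line marks a log2 fold change of 1, and Ifitm1, Ifitm2 and Ifitm3 lie above it in all 5 fits while Ifitm10 lies below 0.

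The genotype difference was next taken within each set, since the 4 sets hold separate libraries of the same 6 mice. DEGs higher in GFAP-IL6 mice made up 0.681% of the genes tested in the set with 2 ng A, 0.758% with 1 ng A, 0.736% with 2 ng B and 0.748% with 1 ng B. Ifitm1 and Ifitm3 were DEGs in all 4 sets. The log2 fold changes of Ifitm3 in these sets were 1.46, 1.52, 1.62 and 1.51, a narrow range beside their standard errors of 0.138 to 0.149. Those of Ifitm1 were 1.66, 1.62, 1.89 and 2.18, with standard errors of 0.211 to 0.285. In the set with 1 ng A, Ifitm1 and Ifitm2 were not called when GFAP-IL6 mouse 3 was left out, which left Ifitm3 as the 1 member called.

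Ifitm2 was a DEG in 3 of the 4 sets. Its log2 fold changes were 1.42, 1.26, 1.15 and 1.21 in the same order, with adjusted p of 0.0283, 0.00624, 0.0708 and 0.0196 by edgeR's quasi-likelihood test with Benjamini-Hochberg adjustment. The set with 2 ng B, where it was no DEG, had Ifitm2 at 5.05 ± 1.59 CPM in WT and 10.9 ± 1.72 CPM in GFAP-IL6 mice (SD, n = 3 each), and all GFAP-IL6 mice were above all WT mice. In the sets with 2 ng A and 1 ng A, the call was lost without WT mouse 2, GFAP-IL6 mouse 2 or GFAP-IL6 mouse 3 (adjusted p of 0.0514 to 0.653 by edgeR), with log2 fold changes of 1.12 or more. With 1 ng B it was lost without any of these or without WT mouse 3 (adjusted p of 0.0542 to 0.455 by edgeR), with log2 fold changes of 0.92 to 1.23. DESeq2 did not call it in the set with 2 ng A (adjusted p = 0.272 by the Wald test). Ifitm10 had log2 fold changes of -0.18, -0.24, -0.04 and -0.12 and was called in none of the sets.

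The study varied the cDNA amount to tune tagmentation, and the amount was associated with the measured level of the Ifitm genes within a mouse. Of 13961 genes, 12.2% had an adjusted p under 0.05 for 2 ng against 1 ng, and Ifitm2 and Ifitm10 were among them, both lower with 2 ng. Ifitm2 averaged 7.40 CPM with 2 ng and 11.7 CPM with 1 ng, a log2 difference of -0.66 (adjusted p = 0.00354 by edgeR's quasi-likelihood test with Benjamini-Hochberg adjustment). It was lower with 2 ng in 11 of the 12 pairs of libraries from 1 mouse and 1 set. Ifitm10 averaged 40.4 and 48.7 CPM and was lower with 2 ng in 10 of 12 pairs, with a log2 difference of -0.29 and an adjusted p of 0.0181 by the same edgeR test. Without WT mouse 2 Ifitm10 was not called (adjusted p = 0.0750).

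The mouse is the same animal in both arms of this comparison. With the mouse as a block, 32.0% of genes were called, and all 4 members were. Ifitm2 then differed by -0.67 (adjusted p = 3.13e-08 by edgeR's quasi-likelihood test with Benjamini-Hochberg adjustment), the 255th lowest of 13961 genes by log2 difference. Ifitm10 differed by -0.30, while Ifitm1 and Ifitm3 went the other way, by 0.27 and 0.19, and were higher with 2 ng in 11 and 10 of 12 pairs. Libraries of 1 mouse are repeat measurements, so these p-values do not concern mice. In this method samples are pooled before tagmentation, so libraries of different mice may share a reaction. The labels do not give the pools. The 12 pairs may thus not be independent, and neither cDNA amount nor set can be told apart from the pool. The direction thus differed between Ifitm2 and Ifitm3 within the same libraries.

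**Figure D3:**
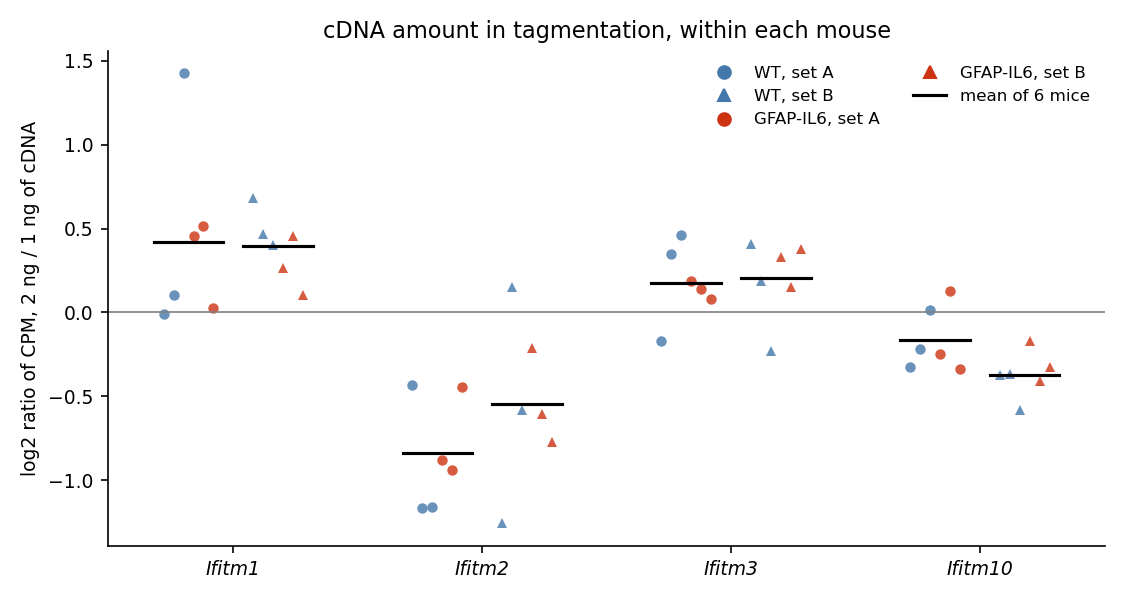
Log2 ratio of CPM with 2 ng over 1 ng of cDNA (vertical axis) within each mouse, for set A (circles) and set B (triangles), WT in blue and GFAP-IL6 in red, with a black line at the mean of 6 mice. Ifitm2 lies below 0 in 11 of 12 pairs and Ifitm1 above 0 in 11 of 12, and the highest point is Ifitm1 of WT mouse 3 in set A at 1.43.

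Set A and set B differed less for the family. Of 14167 genes, 6.8% were called between the sets, and no member was. Their log2 differences, A minus B, were 0.0019 for Ifitm1, -0.17 for Ifitm2, -0.14 for Ifitm3 and -0.17 for Ifitm10. With the mouse as a block, 22.6% of genes were called, and Ifitm3 was the 1 member among them, at -0.15 (adjusted p = 0.00646 by edgeR's quasi-likelihood test with Benjamini-Hochberg adjustment). It was lower in set A in 9 of 12 pairs.

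The fold change between genotypes was not shown to depend on cDNA amount or set. No member and 0.0% of 13961 genes were called for genotype by cDNA amount by edgeR's quasi-likelihood test, with 538 genes at an unadjusted p under 0.05, and DESeq2 called 0 genes, with 80 at that level. No member and 0.0% of 14167 genes were called for genotype by set, with 597 genes at an unadjusted p under 0.05, and DESeq2 again called 0, with 167. The largest member value was that of Ifitm1 by set, a log2 difference of -0.42 (SE 0.224), which means a smaller genotype difference in set A. For Ifitm2 the interaction with cDNA amount was 0.0099 (SE 0.228). In single pairs, Ifitm2 was lower with 2 ng in 5 of 6 from WT and 6 of 6 from GFAP-IL6 mice.

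No other gene that could be tested around the Ifitm cluster was a DEG, which few genes were anywhere. Of 21 other genes within 100 kb of Ifitm1, Ifitm2 or Ifitm3, 14 were in the table, 10 could be tested and none was a DEG by edgeR's quasi-likelihood test, with log2 fold changes from -0.20 to 0.70. In that group 1 gene had an unadjusted p under 0.05, and DESeq2 called 0. Over all genes tested, 1.2% were higher DEGs and 8.75% had an unadjusted p under 0.05. The absence of a DEG among 10 genes thus does not set these neighbours apart. Ifitm6, the next family gene along the cluster, had 62 counts in all 24 libraries and a log2 fold change of 0.28 (adjusted p = 0.942 by the same edgeR test). Sigirr, an inhibitory receptor of interleukin-1 signalling, had the highest value, 0.70 (adjusted p = 0.539 by that test). Near Ifitm10, 3 of 16 genes could be tested. Ctsd, the lysosomal protease cathepsin D, passed the adjusted p there at a log2 fold change of 0.60 (adjusted p = 0.00897 by the same test), below the size for a DEG.

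**Figure D4:**
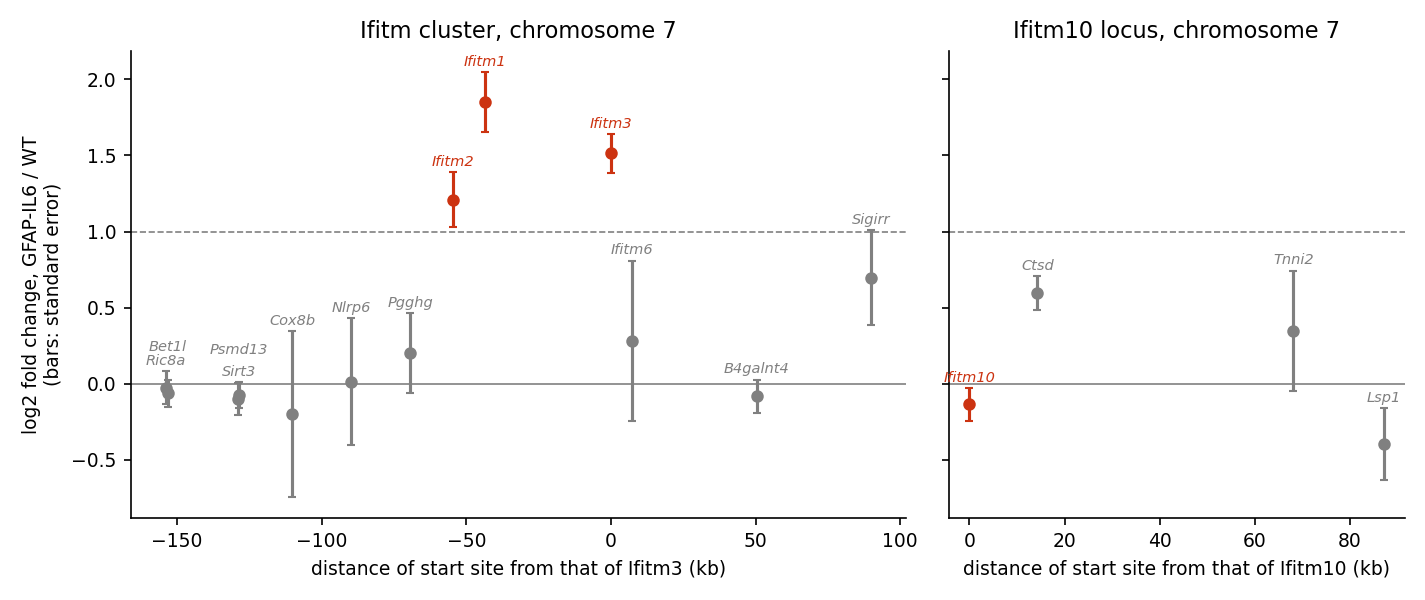
Log2 fold change of GFAP-IL6 over WT (vertical axis, bars are standard errors) against the distance of each gene's start site from that of Ifitm3 (left) or Ifitm10 (right), in kb, for the genes that could be tested. Ifitm1, Ifitm2 and Ifitm3 (red) lie above the dashed line at 1, and the other genes of both loci (grey) and Ifitm10 lie below it.

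The cluster genes resemble each other, which matters for read assignment. Over the last 300 nt of a transcript, Ifitm1 and Ifitm2 were 68.0% identical, Ifitm1 and Ifitm3 64.4%, and Ifitm2 and Ifitm3 64.9%. The longest identical run in that stretch was 26 nt, between Ifitm2 and Ifitm3. Over whole transcripts it was 69 nt between Ifitm2 and Ifitm3, 64 nt between Ifitm1 and Ifitm3, and 40 nt between Ifitm1 and Ifitm2. Where along these transcripts the reads lay was not tested, so sharing of reads between the cluster genes stays possible. The last 300 nt of a single transcript per member were also searched against all transcripts. Apart from Gm11951 for Ifitm2, no other gene's transcript reached 97% identity over 100 nt with these ends. The rest of the transcripts and the other 3' ends of Ifitm10 were not searched.

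By likeness over the 24 libraries, each member was set beside 10740 genes with a mean of at least 5 CPM. The libraries share mice, depth and preparation, so the correlations are descriptions only. Ifitm3 was most like Lyz2, the lysozyme of myeloid cells (Pearson r = 0.976), Gfap (0.976) and Tmem176a (0.975). Ifitm1 was most like Gfap (0.955), Ifitm3 (0.948) and Lrg1, a secreted leucine-rich glycoprotein (0.945). With the genotype means removed, Ifitm1 with Gfap was at 0.741, Ifitm1 with Ifitm3 at 0.670 and Ifitm3 with Lyz2 at 0.748.

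Ifitm2 had other nearest genes, namely the long noncoding Snhg11 (r = 0.933), the complement gene C1qa (0.922) and Hk2, a hexokinase (0.921). With genotype means removed, Ifitm2 stayed at 0.869 with Snhg11 but was at -0.020 with Ifitm3 and -0.25 with Ifitm1. The difference by cDNA amount was not removed from these values. With 2 ng, Ifitm2 was lower by 0.67 and Ifitm1 and Ifitm3 were higher by 0.27 and 0.19, with the mouse as a block. Within each of the 4 sets, the 3 genes followed the same order over the GFAP-IL6 mice. The part of cDNA amount in these correlations was not tested. Snhg11 itself had a log2 fold change of 0.36 between genotypes (adjusted p = 0.0833 by edgeR's quasi-likelihood test) and was no DEG. Ifitm10 was most like Flot2, which encodes a membrane raft protein, at r = 0.785, and its r with Ifitm3 was -0.28.

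Other genes of the family and its surroundings were read against the members. Over all 14621 genes the median log2 fold change was -0.0069, and 48.1% of the values were above 0. In either direction, 1.8% of all genes had an adjusted p under 0.05 and 8.75% an unadjusted p under 0.05, and the counts for each list are to be read against these shares and the 1.2% of higher DEGs. Other Ifitm and dispanin genes, which share the CD225 domain, had 10 of 13 listed symbols in the table and 6 tested, with no DEG by edgeR or DESeq2, 0 genes at an unadjusted p under 0.05 and a median of -0.030. Prrt2, a presynaptic member of this group, was at 217 CPM in WT and 209 CPM in GFAP-IL6 mice. Ifitm5, the bone-restricted member, averaged 0 CPM in WT and 0.0086 CPM in GFAP-IL6 mice, under the floor. Of 16 genes for IFITM partners and modifiers, such as the palmitoyltransferase Zdhhc20, the ubiquitin ligase Nedd4 and gamma-secretase subunits, none was a DEG by edgeR or DESeq2, 1 had an unadjusted p under 0.05, and their median was -0.027.

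Of 19 interferon and IL-6 signalling genes, 2 were DEGs higher in GFAP-IL6 mice, 4 passed the adjusted p and 13 had an unadjusted p under 0.05, with a median log2 fold change of 0.48. Socs3, the feedback inhibitor of IL-6 receptor signalling, had a log2 fold change of 1.62 (adjusted p = 0.0329 by edgeR's quasi-likelihood test), and Irf8, a myeloid transcription factor, one of 1.24 (adjusted p = 0.00612 by that test). Ifngr1 and Irf9 passed the adjusted p at 0.73 and 0.78. Stat3, the main factor activated by IL-6, was at 26.0 and 36.2 CPM in WT and GFAP-IL6 mice, a log2 fold change of 0.49 (adjusted p = 0.0686 by that test).

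Of 29 listed interferon-stimulated genes, 26 were tested, 4 were DEGs, all higher, 6 passed the adjusted p and 15 had an unadjusted p under 0.05, with a median log2 fold change of 0.59. The DEGs were Oasl2 (1.40, SE 0.317), Gbp2 (1.25, SE 0.245), the immunoproteasome subunit Psmb8 (1.11) and Lgals3bp (1.09). All had a smaller fold change than Ifitm1 and Ifitm3, while Ifitm2, at 1.21, was below Oasl2 and Gbp2. Differences between these genes were not tested. Several genes of the classical interferon response did not pass. Ifit3, at 13.3 CPM in GFAP-IL6 mice, had a log2 fold change of 0.17 (adjusted p = 0.864 by edgeR's quasi-likelihood test). Isg15, at 0.497 and 1.22 CPM, had a log2 fold change of 1.30 but an adjusted p of 0.260 by that test.

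**Figure D5:**
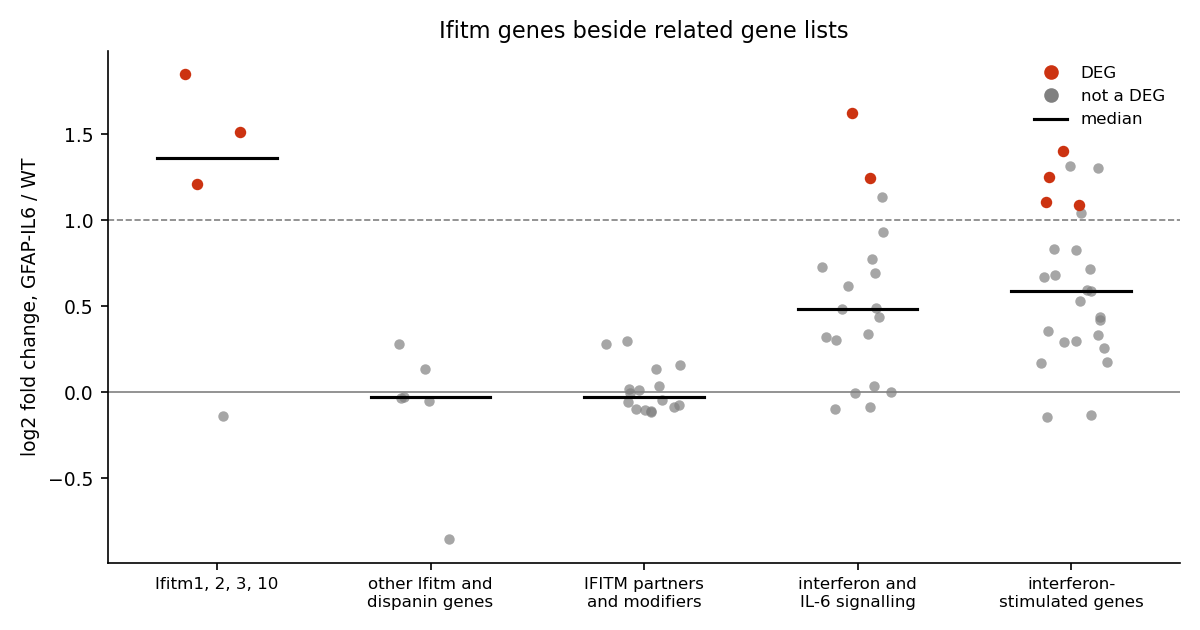
Log2 fold change of GFAP-IL6 over WT (vertical axis) for the 4 Ifitm genes and for the tested genes of the 4 related lists, 1 point a gene (DEGs red, others grey) with a black line at the median. Medians of the lists are -0.030, -0.027, 0.48 and 0.59, and Ifitm1 at 1.85 is the highest point shown.

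In bulk tissue, more cells of a type and more RNA per cell cannot be told apart, so cell type markers are given beside the members. The 9 brain endothelial markers summed to 132 to 134 CPM in WT and 156 to 244 CPM in GFAP-IL6 mice, a ratio of means of 1.60, with no DEG by edgeR or DESeq2, 6 genes at an unadjusted p under 0.05 (8.75% of all genes) and 2 past the adjusted p. The 8 microglial markers summed to 375 to 422 CPM and 608 to 780 CPM, a ratio of 1.72, with Aif1 and C1qa as DEGs and 6 genes past the adjusted p. The 7 astrocytic markers summed to 2891 to 2981 CPM and 3257 to 3457 CPM, and Gfap alone among them was a DEG, with a log2 fold change of 2.44. The 6 pericyte and smooth muscle markers summed to 146 to 186 CPM and 193 to 227 CPM, with no DEG by edgeR or DESeq2 and 1 gene at an unadjusted p under 0.05. None of the markers of these 4 groups was at 0 in all libraries. Their sums were higher in all GFAP-IL6 mice, as Ifitm1, Ifitm2 and Ifitm3 were, and the part of these cell types in the Ifitm values was not tested. The sums for neurons, oligodendrocytes, meningeal fibroblasts, choroid plexus, T and B cells, neutrophils, macrophages and red blood cells overlapped between genotypes. Of these, 6 of 7 T and B cell, 3 of 5 neutrophil and 2 of 6 macrophage markers were below 1 CPM in every mouse. Their overlap thus says little about such cells. The macrophage sums were 3.67 to 5.04 CPM in WT and 4.96 to 7.03 CPM in GFAP-IL6 mice.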

How the data were processed

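The members and gene lists were chosen with earlier results of these data known. The deposited values were raw read counts per gene. Per the study's methods, the authors trimmed polyA stretches from single-end reads, aligned them to mm10 with STAR (version 2.4) and counted reads on GENCODE vM6 genes with featureCounts; the processing notes with the samples name hg19, which the gene identifiers do not match. The strand setting of counting was not given in the sources used here. Every per-sample column was mapped to a sample.

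The 4 libraries of a mouse were summed and 3 GFAP-IL6 were compared with 3 WT mice by edgeR (4.0.16) with filterByExpr, TMM and the quasi-likelihood test, fitted on all genes and adjusted by Benjamini-Hochberg. The methods used DESeq2, which was the alternative here (1.42.0). The SE is the log2 fold change divided by the square root of F. Sets were fitted separately. For 2 ng against 1 ng and set A against set B, counts were summed per mouse and amount or per mouse and set, genotype was a term, and the mouse was a block in a second fit. Interactions had the mouse as a block, and calls in these fits needed an adjusted p under 0.05. CPM were computed from counts and TMM factors, and likeness used log2 CPM with a prior count of 2. limma (3.58.1) fitted the 24 libraries with mouse as a random block. The code was tested on simulated data. Whether mice of a genotype were littermates was not given. Total counts ranged from 1524165 to 12256374 per library, and floors cover counting error only. Genes named are the members, the 3 most like each, Il6 and Gfap, and genes of the lists and loci. Sigirr, Ctsd, Ttr, Prrt2, Ifit3, Isg15, Stat3, Ifngr1 and Irf9 were picked from their lists after their values were seen.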

Additional observations from a re-analysis of the deposited data

Results flagged for a closer look

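Within 1 mouse and set, Ifitm1 of WT mouse 3 in set A had a log2 ratio of 2 ng over 1 ng of 1.43, from 7.92 and 2.95 CPM. It stood apart from the other 5 mice, which ran from -0.0090 to 0.51, since its gap to the nearest of them, as a share of the whole range, was above Dixon's 95% critical value. The values rest on 12 and 6 counts. In set B the same mouse was at 0.40, within the range of the others. In all, 16 groups of 6 mice were looked at in this way, and a 95% limit marks about 1 in 20 of such groups by chance.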

How the results depend on the processing

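Ifitm1 and Ifitm3 were DEGs in the summed counts under each of the 14 alternatives, with log2 fold changes of 1.62 to 2.01 and 1.35 to 1.65. Ifitm2 (0.94 to 1.35) lost its call after down-sampling and, by construction, with the fold threshold raised to 1.5 (and the adjusted p to 0.1). Leaving out a mouse gave 1 to 3 called members in the set with 1 ng A (1 without GFAP-IL6 mouse 3), 1 to 2 for 2 ng against 1 ng (1 without WT mouse 2), 2 to 3 in the sets with 2 ng A and 1 ng B, and the number given in the report for the other comparisons. With the mouse as a replicate block, 4 members were called for 2 ng against 1 ng and 1 for set A against set B. Same-numbered WT and GFAP-IL6 mice share only a number (correlations of their deviations -0.049, -0.037 and -0.061), and blocking on it gave 149 DEGs in place of 180, with the same 3 members called. No mouse correlated best with its own number. Without a filter Ifitm2 was also a DEG with 2 ng B (adjusted p = 0.0267 by edgeR). In the sets with 2 ng A and 1 ng B the block ended the Ifitm2 call (adjusted p of 0.0935 and 0.106 by edgeR).

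Signs turned for values near 0 that were called in no fit. With the replicate block these were Ifitm10 in the set with 2 ng B (0.048) and Ifitm1 between sets (-0.020). Leaving out mice gave -0.15 to 0.11 and -0.19 to 0.0054 for Ifitm10 with 2 ng B and 1 ng B, and -0.060 to 0.082 for Ifitm1 between sets. Genotype by cDNA amount then ran from -0.26 to 0.025 for Ifitm1, -0.14 to 0.21 for Ifitm2 and -0.0099 to 0.062 for Ifitm3. Genotype by set ran from -0.037 to 0.23 for Ifitm2, -0.12 to 0.0067 for Ifitm3 and -0.25 to 0.00090 for Ifitm10.

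Counts of genes called moved by over 1.5 times in some fits. In the set with 2 ng A, 83 DEGs became 54 with DESeq2 and 40 with at least 10 counts in every library. That filter gave 53 in place of 96 with 1 ng A and 39 in place of 91 with 2 ng B, where the block gave 59. It dropped Ifitm2 in both sets with 2 ng and Ifitm1 with 1 ng A. Without GFAP-IL6 mouse 3 the sets had 45 to 52 DEGs, and without GFAP-IL6 mouse 2 the set with 1 ng B had 60 in place of 98. Between sets A and B, 964 genes became 567 without WT mouse 2 and 620 without GFAP-IL6 mouse 2, and for cDNA amount 1698 became 1124 without WT mouse 2. With an adjusted p under 0.1 and a log2 fold change above 1.5, 97 genes were DEGs in the summed counts. Depth limits Ifitm1 and Ifitm2, each with as few as 6 counts in a library.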
